A study of Mus musculus with 9 samples.

Results

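The genes examined here were 10 members of the synaptotagmin family, namely Syt1, Syt2, Syt3, Syt4, Syt5, Syt6, Syt7, Syt9, Syt11 and Syt12. A ChIP-nexus peak was assigned to a member when its summit, the position of highest enrichment, lay in the gene body or within 20 kb of it in GENCODE on the GRCm38/mm10 mouse genome, and 65 of the 30508 peaks in 6 lists met this rule. N2A cells, a mouse neuroblastoma line, had been transiently cotransfected with EGFP-GR, the glucocorticoid receptor, and mCherry-MR, the mineralocorticoid receptor, so that both overexpressed fusion proteins were present in every group, vehicle included. The design text in the labels calls the receptors mouse, whereas the methods of the study describe rat cDNAs. GR was pulled down through EGFP and MR through mCherry, and input chromatin came from each treatment.

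The groups were vehicle, 100 nM corticosterone (CORT) for 20 minutes, and the same CORT pulse followed by 2 washes and 40 minutes without steroid (washout). The 3 replicates of each condition had been combined before peak calling. Each receptor and treatment was therefore 1 list with no values per replicate in the files used here, no test between conditions was possible, and the intervals below cover counting error only. The lists held 64 GR peaks in vehicle, 10602 after CORT and 246 after washout, and 73, 14638 and 4885 MR peaks in the same order. The files give no read depth, and they hold no expression values either, so the identity of the cells could not be checked against marker genes. Presence or absence of a peak below means that it was or was not listed.

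Synaptotagmins are membrane proteins, most of them of vesicles, with a pair of cytoplasmic C2 domains, and the best known members are the calcium sensors that trigger neurotransmitter and hormone release. Syt1, Syt2 and Syt9 are the fast sensors of synchronous release, with Syt2 used at many fast synapses of the hindbrain and spinal cord and at inhibitory synapses. Syt7 is a slower sensor of high calcium affinity, Syt3, Syt5 and Syt6 also bind calcium, and Syt4, Syt11 and Syt12 lack calcium-dependent membrane binding. GR and MR share a closely similar DNA-binding domain and recognise the glucocorticoid response element (GRE), an inverted repeat of AGAACA with 3 bases between its arms.

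The sequences below are the best GRE matches at 6 sites that carry the results on binding position, and they are given first because each one is referred to later. They were read from the plus strand of GRCm38, 5′ to 3′, and the capitals mark the 2 arms of 6 bases. A match was scored by its mismatches over the 12 fixed positions of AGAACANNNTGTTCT, an inverted repeat that reads the same on both strands. A GRE was called at 3 mismatches or fewer within 100 bp of a summit. All 12 positions counted alike, whichever bases differed, so the limit is one of letters and not of receptor binding.
Syt1 intron, +114.3 kb from the gene start, chr10:108896714-108896740, 2 mismatches: cagcagAGAACAgaaTGTTTGtttcga
Syt3 exon, +1.3 kb, chr7:44385364-44385390, 2 mismatches: taatgaAGTACAcgcTGTTCCccagcc
Syt9 intron, +46.1 kb, chr7:107416907-107416933, 3 mismatches: atcatcAGAGCTgtcTGGTCTtgccta
Syt9 intron, +140.1 kb, chr7:107510834-107510860, 3 mismatches: tccaatAGCACAggaCGTACTataatg
Syt7 downstream, +80.7 kb, chr19:10469774-10469800, 3 mismatches: gctcgaGGAACGaagCGTTCTggtagt
Syt2 intron, +58.3 kb, chr1:134705002-134705028, 4 mismatches and thus not called a GRE: gagtgtGGGACAgaaCGTTCCaggctg

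After CORT, GR peaks were listed at 7 of the 10 synaptotagmin genes and MR peaks at 8, and after washout MR peaks were listed at 5. The shares of all 21938 protein-coding genes with a peak by the same rule were 26.3% for GR after CORT, 30.2% for MR after CORT and 14.3% for MR after washout. The members held 21 GR peaks and 33 MR peaks after CORT, and 11 MR peaks after washout. No synaptotagmin peak was listed for GR in vehicle, GR after washout or MR in vehicle, where 0.109%, 1.02% and 0.109% of genes had one. Members had a median of 1.5 GR and 2 MR peaks after CORT and of 0.5 MR peaks after washout, against a median of 0 over all genes in each of these lists.

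The members ranged in length from 7.78 kb (Syt5) to 513 kb (Syt1), so counts were also set against length. Over the 1.44 Mb of their bodies and flanks, the members held 14.6 GR peaks per Mb after CORT (95% Poisson interval 9.05 to 22.3), where all gene windows together held 5.86 and the genome 3.88. For MR after CORT the density was 23.0 per Mb (15.8 to 32.2) against 8.00 in all gene windows and 5.34 in the genome. After washout it was 7.65 MR peaks per Mb (3.82 to 13.7) against 2.62 and 1.78. The count of 0 in each of the other 3 lists allows up to 2.57 peaks per Mb by the exact Poisson interval. The members were chosen with earlier results of these data known, so these intervals do not test a difference from all genes. They also take peaks as independent, although some lay close together, and may therefore be too narrow.

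**Figure D1:**
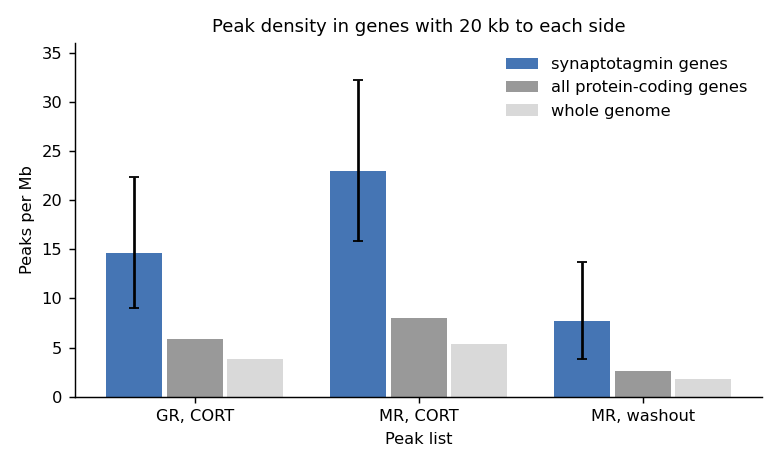
Peaks per Mb (y axis) in the synaptotagmin genes, in all protein-coding genes and in the whole genome for 3 peak lists; gene windows include 20 kb to each side, and error bars are 95% Poisson intervals that cover counting error only. The synaptotagmin bars stand at 14.6, 23.0 and 7.65 and the bars for all gene windows at 5.86, 8.00 and 2.62. The genes were chosen with earlier results of these data known, so the error bars do not test a difference from all genes.

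The members differed by length. In the 5 members whose window reached 100 kb or more (Syt1, Syt2, Syt6, Syt7 and Syt9), GR and MR peaks were listed at 5 of 5 after CORT and MR peaks at 4 of 5 after washout, where 39.5%, 45.8% and 27.1% of genes of that length had one. These 5 genes held 19 of the 21 GR peaks, 28 of the 33 MR peaks after CORT and 10 of the 11 after washout, which is a mean of 3.8, 5.6 and 2 per gene against 1.29, 1.82 and 0.602 over all genes of that length. In the 5 shorter members, peaks were listed at 2 for GR and 3 for MR after CORT and at 1 for MR after washout, where 23.1%, 26.5% and 11.2% of genes of that length had one. Their mean of 0.4 GR peaks stood beside 0.414 over all genes of that length, and their mean of 1 MR peak beside 0.516.

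By role, the fast calcium sensors Syt1, Syt2 and Syt9 held 13 GR and 23 MR peaks after CORT and 9 MR peaks after washout, and all 3 of these genes had peaks in each of the 3 lists. All 3 have windows of 100 kb or more, and 39.5%, 45.8% and 27.1% of all genes of that length had a peak. Together they took up 0.927 Mb of the 1.44 Mb of member windows. The other calcium-binding members Syt3, Syt5, Syt6 and Syt7 held 7, 6 and 1, and Syt4, Syt11 and Syt12 held 1, 4 and 1. Per length, GR peaks after CORT stood at 14.0 per Mb (7.47 to 24.0), 22.0 (8.84 to 45.3) and 5.22 (0.132 to 29.1) in the 3 role groups in this order. MR peaks stood at 24.8 (15.7 to 37.2), 18.9 (6.92 to 41.0) and 20.9 (5.69 to 53.5) after CORT, and at 9.71 (4.44 to 18.4), 3.14 (0.0795 to 17.5) and 5.22 (0.132 to 29.1) after washout. The counting intervals of the 3 groups overlapped in each list.

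**Figure D2:**
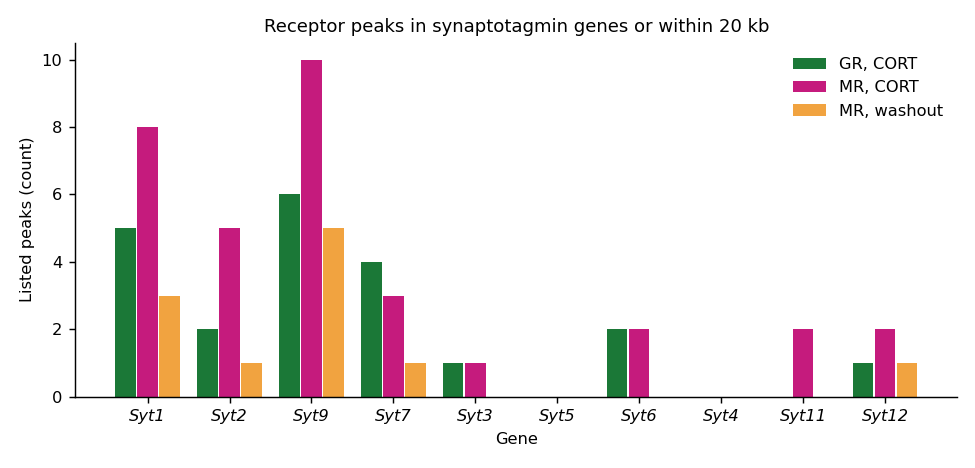
Number of listed peaks (y axis) in each synaptotagmin gene or within 20 kb of it (x axis), for GR after CORT, MR after CORT and MR after washout; vehicle and GR after washout had 0. Syt9 had the most in all 3 lists, with 6, 10 and 5, and Syt4 and Syt5 had 0.

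Syt2 lies at chr1:134646677-134762593 on the plus strand and had 2 GR peaks and 5 MR peaks after CORT and 1 MR peak after washout. Its main site was in an intron 58.3 kb from the gene start, at chr1:134704650-134705140, and was listed for GR after CORT, MR after CORT and MR after washout. There the significance of the GR peak, as −log10 p from the peak caller, was 23.4, which ranked 215 of 10602 (the strongest 2.03% of the list). The MR peak after CORT had a −log10 p of 24.5 and ranked 415 of 14638 (2.84%), and after washout it had 19.3 and ranked 325 of 4885 (6.65%). The site was thus among the strongest 10% of all 3 lists. The −log10 p depends on read depth and on the control, so values of different lists are not compared here and rank is used instead.

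The GR summit of the main Syt2 site lay 20 bp from the MR summit, and the MR summits after CORT and after washout were 2 bp apart. The GR peak was 491 bp wide and the MR peak 423 bp after CORT and 142 bp after washout, where the median width in these lists was 121, 62 and 70 bp. The best match to the GRE, printed above, had 4 mismatches and its centre was 4 bp from the MR summit. At least 4 in 12 positions differed also over the whole of the joined site, and matches with up to 4 mismatches were found at 79.0% of all GR peaks and 82.1% of all MR peaks after CORT. A pair of borders called from the exonuclease stops marks the edges of a protected stretch, and 2 MR border pairs after CORT lay in this site at chr1:134704782-134704901 and chr1:134704860-134704906, both upstream of the summits in the 5′ part of the peak.

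A second Syt2 site of both receptors lay at +63.0 kb, also in the intron. The GR peak there ranked 7262 (68.5%) with a −log10 p of 7.38, and the MR peak ranked 2537 (17.3%) with 13.4. No peak was listed at this place after washout. GENCODE annotates a further Syt2 transcript start between these sites, 418 bp from the MR summit at +63.0 kb and 4281 bp from that at +58.3 kb, so the sites that are far from the gene start were near an internal one. The other 3 Syt2 peaks were MR peaks after CORT without GR, at +4.76 kb (−log10 p 10.6, rank 4705), +12.2 kb (9.17, rank 6549) and +58.7 kb (5.31, rank 13751). Of the genes compared, 15 of 21937 had the same 6 peak counts as Syt2, of which AI661453, Actn1 and Afap1l1 come first in alphabetical order.

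Syt1, the main fast sensor of forebrain neurons, spans chr10:108497650-109010982 on the minus strand and had 5 GR peaks and 8 MR peaks after CORT and 3 MR peaks after washout, all intronic. Its strongest site lay 114.3 kb into the gene at chr10:108896651-108896861. The GR peak there had a −log10 p of 14.2 and ranked 1168 (11.0%), and the MR peak after CORT had 24.5 and ranked 415 (2.84%). After washout the MR peak had 38.1 and ranked 26 of 4885 (0.532%), the strongest rank of any synaptotagmin peak. The lists differ in length and depth, so these ranks place the peak within each list and do not measure a change between treatments.

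At this Syt1 site the GR and MR summits were 1 bp apart after CORT, and the MR summit after washout was 2 bp from that after CORT. The GRE with 2 mismatches printed above had its centre 4 bp from the MR summit. An MR border pair after CORT, chr10:108896711-108896738, was 28 bp wide with its midpoint 2.5 bp from the GRE centre, and a pair after washout, chr10:108896712-108896725, was 14 bp wide. The midpoint of the washout pair was 8.5 bp from the GRE centre. Both pairs overlapped the GRE, unlike at the main Syt2 site, where both border pairs lay away from the summits.

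A further Syt1 site, at +126.8 kb, was the only one of the family with an MR peak after washout and no peak after CORT. Its −log10 p was 14.7 and its rank 712 (14.6%). The separate border calls did list an MR pair there after CORT, chr10:108884164-108884206, and MR peaks after CORT were listed close by at +126.5 kb (9.17, rank 6549) and +126.3 kb (7.83, rank 8979). The site at +80.3 kb was in all 3 lists, with GR at rank 5190 (49.0%), MR at 5907 (40.4%) and MR after washout at 3444 (70.5%). The sites at +145.2 kb and +55.7 kb were listed for both receptors after CORT but not after washout. MR alone was listed at +209.6 kb, and GR alone at +472.1 kb near the 3′ end of the gene.

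Syt9, the fast sensor also used in limbic neurons and secretory cells, spans chr7:107370728-107548656 on the plus strand and had the most peaks of the family, with 6 GR and 10 MR peaks after CORT and 5 MR peaks after washout. Per Mb of its window these are 27.5, 45.9 and 22.9. Its strongest site was in an intron at +173.8 kb, chr7:107544264-107544681. The GR peak ranked 653 (6.16%) with a −log10 p of 17.2 and the MR peak ranked 957 (6.54%) with 19.3. The summits of GR and MR were 4 bp apart. After washout 2 narrow MR peaks of 44 and 45 bp were listed under the wide CORT peaks, at rank 1295 (26.5%) and 2521 (51.6%).

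The remaining Syt9 sites were weaker. At +46.1 kb GR ranked 3521 (33.2%), MR 2537 (17.3%) and MR after washout 3444 (70.5%), and the printed GRE lay 66 bp from the MR summit. At +140.1 kb, MR was listed after CORT (rank 3406) and after washout (rank 2521) without GR, the only such site in the family, with a GRE 28 bp from the MR summit. GR and MR summits fell on the same base at +162.2 kb, where no washout peak was listed. A cluster near +168 kb held 2 GR and 2 MR peaks after CORT and 1 MR peak after washout, and the washout peak overlapped a GR peak but lay between the 2 MR peaks. The GR summit at +168.1 kb had a GRE with 2 mismatches within 100 bp. From +168 kb on, the nearest protein-coding start was that of Olfml1, 22.9 kb from the MR summit of the strongest site and 4284 bp from that of the downstream site at +192.4 kb.

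**Figure D3:**
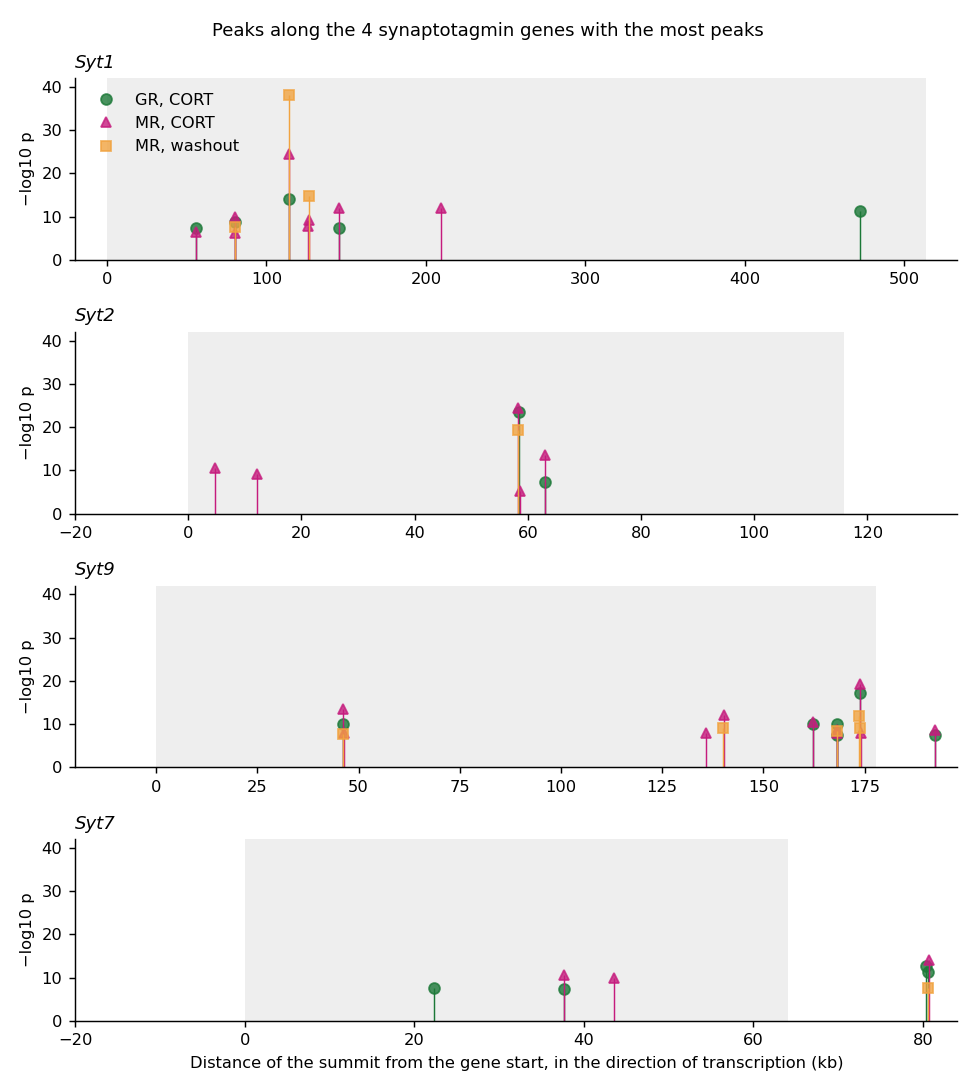
Peaks along Syt1, Syt2, Syt9 and Syt7, with the distance of the summit from the gene start in kb (x axis, in the direction of transcription) and the −log10 p from the peak caller (y axis); grey shading is the gene body, and circles, triangles and squares are GR after CORT, MR after CORT and MR after washout. The tallest marks are MR after washout (38.1) and MR after CORT (24.5) at +114.3 kb in Syt1 and the 3 lists at +58.3 kb in Syt2 at 23.4, 24.5 and 19.3. Heights are to be read within a list only, since the −log10 p depends on read depth and on the control.

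Syt7, the slow high-affinity sensor, spans chr19:10389090-10453180 and was the only member with more GR peaks than MR peaks after CORT, 4 against 3, with 1 MR peak after washout. Its strongest site lay downstream of the gene at +80.7 kb, chr19:10469435-10469955. A single MR peak of 521 bp covered 2 separate GR peaks there, with MR at rank 2326 (15.9%) and GR at ranks 2124 (20.0%) and 3020 (28.5%). MR after washout ranked 3843 (78.7%) and had its summit 46 bp from the MR summit after CORT. MR border pairs after CORT numbered 3 in this site, and the pair chr19:10469777-10469789 had its midpoint 4 bp from the centre of the GRE printed above. The nearest protein-coding start was that of Lrrc10b, 12330 bp from the MR summit. Within Syt7, an intronic site at +37.7 kb was listed for GR (rank 7262) and MR (rank 4705), GR alone was listed at +22.3 kb and MR alone at +43.5 kb.

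Syt3 had 1 site, at +1.3 kb in an exon of a processed Syt3 transcript, and no intronic peak. GR ranked 3521 (33.2%) with a −log10 p of 9.99 and MR ranked 8097 (55.3%) with 8.60, and the GRE with 2 mismatches lay 3 bp from the MR summit. This was the only site of the 10 members in an exon, and the start of 1700008O03Rik was nearer to it than a Syt3 start, at 310 bp against 506 bp from the MR summit. Syt6 had 2 GR and 2 MR peaks after CORT at 4 different sites, and none was shared. The strongest was an MR peak 10409 bp upstream, with a −log10 p of 18.0 and rank 1060 (7.24%), and the stronger GR peak was 1615 bp upstream, with 8.76 and rank 4891 (46.1%).

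Among the members without calcium-dependent binding, Syt12 had a site of both receptors 15674 bp upstream, chr19:4493033-4493159. GR ranked 861 (8.12%) with a −log10 p of 15.7 and MR ranked 1385 (9.46%) with 16.5. After washout the MR peak had 6.06 and ranked 4597 of 4885 (94.1%), so a site in the strongest 10% of both CORT lists was near the end of the washout list. The motif of AP-1, a factor made of Fos and Jun proteins, was present within 100 bp of the summits, and the start of 2010003K11Rik was nearer, 5462 bp from the MR summit. A second Syt12 peak, 700 bp upstream of the gene start, was listed for MR only (7.42, rank 10559). Syt11 had 2 MR peaks at +17.3 and +17.4 kb, both at 10.6 and rank 4705, and no GR peak.

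Syt4 and Syt5 had no peak in any list. These are the shortest members, 9.60 and 7.78 kb long. The nearest MR peak after CORT lay 758 kb from Syt4 and 38.8 kb from Syt5, and the nearest GR peak 1717 kb and 128 kb away.

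**Figure D4:**
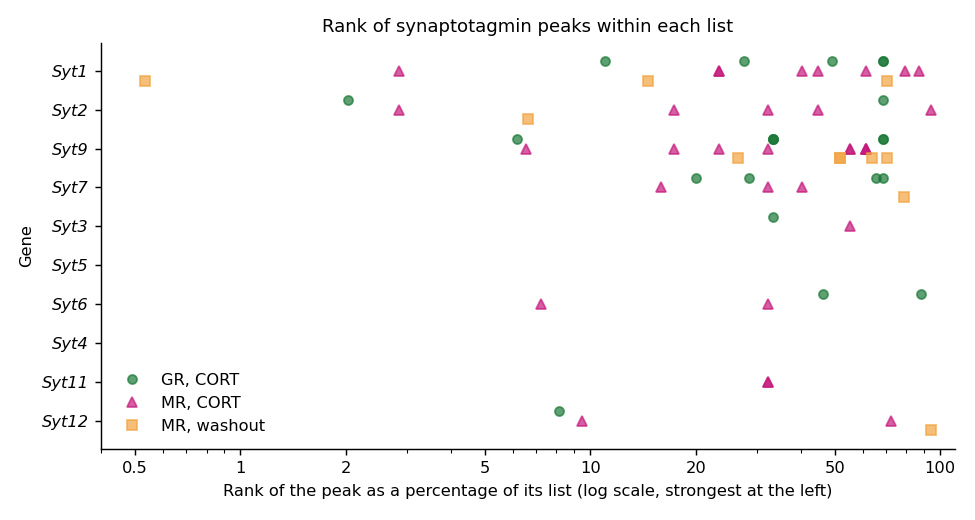
Rank of each synaptotagmin peak as a percentage of its own list (x axis, log scale, strongest at the left) by gene (y axis), for GR after CORT, MR after CORT and MR after washout. The strongest rank is MR after washout in Syt1 at 0.532%, followed by the Syt2 peaks of GR at 2.03% and of MR at 2.84%, the latter shared with Syt1.

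As a family the peaks ranked across the whole range of each list. The median rank was 33.2% for the 21 GR peaks and 32.1% for the 33 MR peaks after CORT and 51.6% for the 11 MR peaks after washout, where the median over all peaks of each list, with ties, was 49.0%, 44.7% and 46.7%. The strongest 10% of each list held 3, 5 and 2 of the synaptotagmin peaks, and 10.3%, 11.0% and 9.99% of all peaks. Many peaks carry the same −log10 p, for example 1187 GR peaks at 7.38, and tied peaks share the lowest rank number of their group.

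Joining peaks that overlapped by at least 1 bp gave 38 sites. Both receptors were listed after CORT at 16, MR alone at 17 and GR alone at 4, and the remaining site was the washout-only one in Syt1. Of the GR peaks after CORT, 17 of 21 overlapped an MR peak (81.0%, exact 95% interval 58.1 to 94.6), and 61.0% of the whole GR list did. Of the MR peaks, 16 of 33 overlapped a GR peak (48.5%, 30.8 to 66.5), and 47.6% of the whole MR list did. Both intervals included the value of the whole list. No synaptotagmin peak overlapped a vehicle peak of the same receptor, and 0.575% of the GR list and 0.410% of the MR list did.

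After washout, MR was listed within 8 of the 16 joined sites of both receptors, at 1 of the 17 sites of MR alone and at none of the 4 sites of GR alone. Counted by peaks, 8 of 33 MR peaks overlapped an MR washout peak (24.2%, 11.1 to 42.3; whole list 24.6%). For MR peaks that overlapped GR this was 7 of 16 (43.8%, 19.8 to 70.1; whole list 40.0%), and for those that did not it was 1 of 17 (5.88%, 0.149 to 28.7; whole list 10.5%). Seen from the washout list, 9 of 11 MR peaks overlapped an MR peak after CORT (81.8%, 48.2 to 97.7; whole list 75.7%) and 9 of 11 a GR peak after CORT (whole list 65.6%), and 8 of 21 GR peaks overlapped an MR washout peak (38.1%, 18.1 to 61.6; whole list 28.2%). Each of these intervals included the share of the whole list, but they were wide, so closeness to the whole list cannot be judged from them. None of the 21 GR peaks overlapped a GR washout peak, which allows a share of up to 16.1%, and the whole list had 2.13%. The 8 sites of both receptors with an MR washout peak were in Syt1 (+80.3 and +114.3 kb), Syt2 (+58.3 kb), Syt7 (+80.7 kb), Syt9 (+46.1, +168.3 and +173.8 kb) and Syt12 (−15.7 kb). At 7 of them the washout peak overlapped an MR peak after CORT, and at Syt9 +168.3 kb it overlapped only a GR peak.

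At the 16 sites of both receptors the GR and MR summits lay a median of 15.5 bp apart (0 to 283, taking the strongest peak of each receptor), and 12 pairs were within 50 bp. Over the 6446 GR peaks on chromosomes 1 to 19, X and Y that overlapped an MR peak (unplaced sequences left out) the median was 27 bp, and 72.0% were within 50 bp. At the 9 sites with MR both after CORT and after washout, the MR summits lay a median of 15 bp apart (2 to 154).

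**Figure D5:**
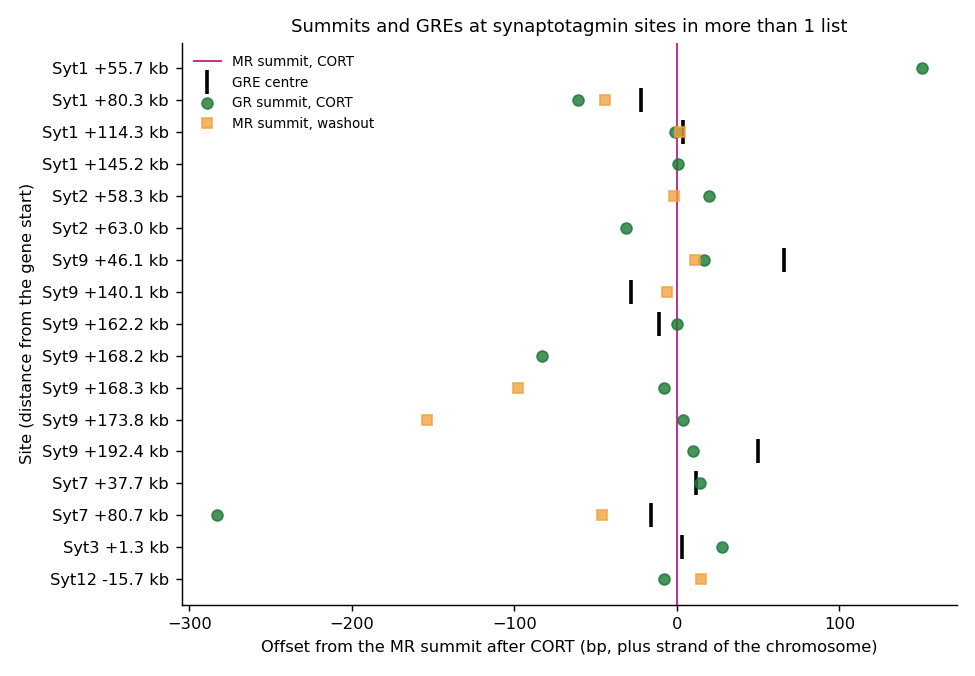
Offset in bp from the MR summit after CORT (x axis, vertical line at 0) of the GR summit after CORT, the MR summit after washout and the GRE centre, at each synaptotagmin site with MR after CORT and at least 1 of the other lists (y axis, named by gene and distance from the gene start). The strongest peak of each list is drawn, with the GRE around the strongest CORT summit. Syt1 at +114.3 kb has all marks within 4 bp of 0, and Syt7 at +80.7 kb has the widest GR offset, 283 bp.

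GRE matches were present within 100 bp of the summit at 9 of 21 GR peaks (42.9%, 21.8 to 66.0; whole list 37.7%), at 14 of 33 MR peaks after CORT (42.4%, 25.5 to 60.8; whole list 39.9%) and at 5 of 11 MR peaks after washout (45.5%, 16.7 to 76.6; whole list 45.5%). In windows of the same length 1000 bp to either side of the peaks, the shares were 14.6%, 15.2% and 15.3% over the whole lists, and 7 of 42 and 11 of 66 windows beside the synaptotagmin GR and MR peaks after CORT. By sites, 15 of 38 had a GRE within 100 bp of any of their summits, 3 of them with 2 mismatches and 12 with 3, and no match had fewer than 2. At the 14 sites with a GRE around the strongest CORT summit, the median distance between GRE centre and that summit was 21 bp (4 to 66). Of the 16 sites of both receptors, 9 had a GRE at any summit. The AP-1 motif TGANTCA was found at 2 of 21 GR peaks, 3 of 33 MR peaks and 1 of 11 washout peaks, where the whole lists had 11.2%, 10.1% and 11.7%. A match describes the letters only and does not show which protein was bound.

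Most synaptotagmin peaks were intronic and far from the gene start. Intronic summits numbered 15 of 21 for GR and 27 of 33 for MR after CORT, and 9 of 11 for MR after washout. In the gene body, exons included, lay 16, 28 and 9, where over all pairs of a peak and a protein-coding gene with its summit in the gene or within 20 kb 50.8%, 53.6% and 53.7% did. Summits over 20 kb from the gene start numbered 17, 25 and 10, against 50.3%, 53.4% and 54.0% of all such pairs, which include many shorter genes. Within 1 kb of any annotated start of the member lay 2 GR peaks and 3 MR peaks after CORT and 0 after washout, all in Syt2, Syt3 and Syt12. The share of all pairs within 1 kb of a start was not computed, so these counts have no background here. The member's own start was the nearest protein-coding start for 13 of 21, 22 of 33 and 6 of 11 peaks, and for 62.5%, 64.5% and 65.0% of all pairs.

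The border calls gave 8 MR pairs after CORT in the synaptotagmin windows out of 3285, at Syt1, Syt2 and Syt7, and all 8 lay in peak sites. The pair at Syt1 +126.8 kb lay in the site listed only for MR after washout. The share of all 3285 pairs that lay in peaks was not computed. After washout there were 2 MR pairs out of 1670, at Syt1 and Syt7. Input chromatin of the vehicle group had 2 pairs out of 6351, beside Syt5 and in Syt6, neither in a peak site, and the input of the other treatments had 0. No synaptotagmin peak overlapped an input pair, where 0.877% of all GR peaks and 0.833% of all MR peaks after CORT and 1.72% of MR peaks after washout did. No GR pair lay in these windows, but the GR list after CORT as used here held 139 pairs and may be part of a longer one, so this 0 says little about GR.

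The other synaptotagmin genes (Syt8, Syt10, Syt13, Syt14, Syt15, Syt16 and Syt17, 7 genes) had GR listed after CORT at 3, MR listed after CORT at 3 and MR listed after washout at 1. Among 25 genes of the release machinery, such as SNARE proteins, complexins, Munc13 and RIM proteins and SV2 vesicle proteins, 12 had GR and 12 had MR listed after CORT, and 7 had MR listed after washout. The shares of all protein-coding genes in these lists were 26.3%, 30.2% and 14.3%. Densities after CORT were 7.91 GR and 13.6 MR peaks per Mb in the other synaptotagmins and 6.13 and 8.26 in the release machinery. All gene windows together held 5.86 and 8.00. For MR after washout the densities were 1.13 and 4.01, against 2.62 in all gene windows. Syt8 alone held 5 of the 7 GR and 7 of the 12 MR peaks of the other synaptotagmins after CORT. Those with the most MR peaks after CORT were Sv2c, a vesicle glycoprotein, with 9 GR, 14 MR and 6 MR washout peaks, Syt8 with 5, 7 and 1, and Cplx1, which clamps and promotes fusion with Syt1, with 4, 4 and 1, tied at 4 MR peaks with Rims2, an active zone protein. A GR peak after washout was listed at 1 of these genes, Nsf.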

How the data were processed

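The ChIP-nexus reads had been aligned to GRCm38/mm10 with Bowtie2, duplicates with the same random barcode removed, replicates combined, and peaks called with MACS2 2.1.1.20160309 at an FDR of 0.05 against input chromatin, per the methods of the study and the submitters' processing notes. The deposited peak lists hold a −log10 p and a −log10 q value for each peak, computed by MACS2 for the authors, and a score, which in the deposited files is the whole part of 10 times the −log10 q (with 1 exception). The border pairs came from MACE, and the deposited tables give a p-value for each pair in all lists but that of GR after CORT, which holds positions only. Those p-values were not used. The column headings of the deposited peak lists do not match their contents, so columns were identified from their values. The files hold no read counts, and the library totals stated by the study were not used here, since they give no precision for single peaks.

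Summits were assigned to protein-coding genes of GENCODE M21, on the same build, with 20 kb to each side, and each peak was ranked within its list by −log10 p. Overlap meant at least 1 bp, as in the study. GREs were searched in the GRCm38.p6 sequence within 100 bp of each summit on both strands, with at most 3 mismatches, and AP-1 as TGANTCA. Exact 95% intervals (Clopper-Pearson for shares, Poisson for densities, binomial order statistics for median ranks) cover counting error only. With 1 list per condition there was no test. Python 3.11.15, numpy 2.4.6, pandas 2.3.3, scipy 1.17.1, pysam 0.24.0, samtools 1.23.1 and matplotlib 3.10.9 were used. The overlap of intervals and the GRE search were tested on simulated data, and the assignment to genes and the AP-1 search were not.

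All 10 members were named with their counts, with every peak of Syt2 and at least the strongest peaks of the others. Of the other synaptotagmins and the release machinery, the 3 with the most MR peaks after CORT were named (Rims2, tied with the third, was added afterwards), together with the first 3 in alphabetical order of the genes with the same counts as Syt2 and neighbours whose start was nearer to a peak. Nsf was named after its count was seen. The members and lists were chosen with earlier results of these data known. Alternatives were a −log10 q of at least 5, genes with 5 kb to each side, summits within 50 bp in place of overlap, gene bodies alone, any overlap with the gene window, lists without vehicle peaks, an MR list after CORT shortened to the size of the GR list, and other mismatch limits and motif windows.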

Additional observations from a re-analysis of the deposited data

How the results depend on the processing

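Of 58 alternatives, 47 left a count within 1.5 times its value or a share, density or median rank within its interval, and 11 moved it farther. Each value was compared with the main value of the same members. Whether it changed sides of the whole list was not part of this count. Several alternatives applied to counts of 0, and most of these could only leave the 0 as it was. The 47 therefore overstate how stable the results were. With peaks of a −log10 q of at least 5 only, the members held 11 GR and 21 MR peaks after CORT and 4 MR peaks after washout, or 7.65, 14.6 and 2.78 per Mb. The density over all gene windows was not computed at this limit, so these values cannot be set against the densities of the full lists. Requiring summits within 50 bp in place of overlap lowered the share of GR peaks with MR from 81.0% to 57.1%. The share of the whole GR list was not computed in this way. With at most 2 mismatches a GRE was found at 14.3% of GR and 6.06% of MR peaks after CORT (whole lists 10.5% and 11.5%), and with at most 4 at 90.5% and 87.9% (79.0% and 82.1%). The limit on mismatches therefore set the GRE share. With at most 3 mismatches the share of MR peaks lay above that of the whole list (42.4% against 39.9%), and with at most 2 below it. Both intervals included the value of the whole list (0.743 to 20.2 with at most 2). No paired analysis was possible because the replicates were combined into 1 list per condition, and no replicate could be left out. A site not listed may have been bound below the calling threshold, and peak assignment by distance does not show which gene a site acts on.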
